A study of Mus musculus with 17 samples.

Results

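The genes described here load peptides onto MHC class I molecules: the transactivator Nlrc5, the class I heavy chains H2-K1 and H2-D1, the light chain B2m, the peptide transporter subunits Tap1 and Tap2, the loading factor Tapbp, and the immunoproteasome subunits Psmb8, Psmb9 and Psmb10. The 10 genes were chosen by name, with earlier results of these data known. Their counts beside those of all genes are therefore no independent support. Every probe set was taken whose only gene symbol in the array's annotation is one of these 10. That gave 27 probe sets, out of 34945 probe sets with 1 symbol for 18193 genes. Another 3 probe sets carry a member's symbol together with other genes and were not used.

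Sorted bone marrow cells of mice gave RNA for 17 arrays in 2 batches. Cells were sorted by antibodies to CD24, CD48 and Gr-1, surface proteins held by a glycosylphosphatidylinositol (GPI) anchor, which needs the gene Piga (Pig-a in the labels). Batch 1 compared both fractions of Pig-a knock-out mice, GPI-negative and GPI-positive, on 3 arrays each. In batch 2, 4 arrays measured the GPI-negative fraction of C57BL/6 mice that had received knock-out marrow. The GPI-positive fraction was measured on 3 arrays from mice that had received wild-type marrow and on 4 from wild-type C57BL/6 mice. The knock-out donor marrow had been kept with 10 nM aerolysin, a bacterial toxin that kills cells through their GPI-anchored proteins, for 30 minutes, and its recipients had been given 9 Gy of irradiation. The labels state neither treatment for the recipients of wild-type marrow, so GPI status, donor genotype and treatment cannot be told apart between the recipients. Recipients of knock-out marrow differ from wild-type mice in all of these and in transplantation, which cannot be told apart there either. The sources used here do not name the Cre or promoter behind the knock-out or the ages of the mice. The GPI-negative gate takes cells unstained by the antibodies, which would also hold cells that do not make these 3 antigens. Replicates are called biological and the animals are not named, so the spread behind a p-value is that between arrays and may be partly technical.

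As background, MHC class I molecules show fragments of a cell's own proteins to CD8 T cells. The proteasome cuts the proteins, TAP carries the peptides into the endoplasmic reticulum, tapasin (Tapbp) holds an empty heavy chain next to TAP, and the heavy chain with beta-2 microglobulin (B2m) takes the peptide to the surface. Interferon gamma exchanges the constitutive catalytic subunits of the proteasome for Psmb8, Psmb9 and Psmb10. Nlrc5 acts through a complex of RFX, CREB/ATF and NF-Y factors on the X and Y boxes of class I promoters. Lymphocytes, T and NK cells among them, are known for high class I levels and Nlrc5.

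The stretch of 250 bases before the transcription start is shown for 5 members. H2-K1, H2-D1, B2m and Tap1 match the X and Y box letters given below, as does Psmb9, whose window is not shown. By their brightest probe sets not all of them differed between the knock-out fractions, although other H2-D1 probe sets did. Psmb8, which differed, matches neither. Whether the matches bear on the differences was not tested. The sequences are RefSeq's on GRCm38.p6, 5′ to 3′ on the gene's strand, and capitals mark matches on either strand to 5 motifs. These were the ISRE core GAAANNGAA and the GAS element TTCNNNGAA, which bind interferon-activated factors, the kappa B site GGGATTCCC, the X2 core TGACG and the Y box CCAAT. No 2 matches overlap within a printed window. The windows lie at chr17:34000348-34000597 on the minus strand (H2-K1), chr17:35262844-35263093 on the plus strand (H2-D1), chr2:122147437-122147686 on the plus strand (B2m), chr17:34187306-34187555 on the plus strand (Tap1) and chr17:34197945-34198194 on the plus strand (Psmb8).
H2-K1: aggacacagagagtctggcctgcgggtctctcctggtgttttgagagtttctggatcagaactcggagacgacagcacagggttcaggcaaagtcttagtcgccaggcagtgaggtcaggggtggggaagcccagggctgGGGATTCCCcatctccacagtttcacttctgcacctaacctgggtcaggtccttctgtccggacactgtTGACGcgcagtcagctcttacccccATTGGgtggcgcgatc
H2-D1: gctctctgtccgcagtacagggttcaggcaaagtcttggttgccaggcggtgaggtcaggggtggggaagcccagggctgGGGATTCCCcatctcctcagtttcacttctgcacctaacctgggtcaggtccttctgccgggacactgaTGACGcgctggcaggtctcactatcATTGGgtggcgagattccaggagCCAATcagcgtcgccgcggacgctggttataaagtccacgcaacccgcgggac
B2m: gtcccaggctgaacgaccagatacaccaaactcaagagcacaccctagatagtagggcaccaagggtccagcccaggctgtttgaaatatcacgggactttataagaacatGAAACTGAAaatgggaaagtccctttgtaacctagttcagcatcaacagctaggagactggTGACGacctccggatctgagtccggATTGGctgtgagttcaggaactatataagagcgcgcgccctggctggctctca
Tap1: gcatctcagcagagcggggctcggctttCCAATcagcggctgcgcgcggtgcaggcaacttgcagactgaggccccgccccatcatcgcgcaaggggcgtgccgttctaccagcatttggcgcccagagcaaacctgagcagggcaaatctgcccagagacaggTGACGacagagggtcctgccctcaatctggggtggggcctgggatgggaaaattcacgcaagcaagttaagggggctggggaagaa
Psmb8: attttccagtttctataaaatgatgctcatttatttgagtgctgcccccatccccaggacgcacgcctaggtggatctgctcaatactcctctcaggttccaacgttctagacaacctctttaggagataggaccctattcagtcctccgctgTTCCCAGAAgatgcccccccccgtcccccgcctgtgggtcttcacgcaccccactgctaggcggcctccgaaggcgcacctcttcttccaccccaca

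Of the 10 members, 8 matched the promoter table, in 9 windows, since H2-K1 has 2 start sites. In H2-K1 the kappa B site began at base -110 from the start, the X2 core at -41 and the Y box at -16. H2-D1 held the kappa B site at -170, the X2 core at -101 and Y boxes at -76 and -53. The X2 core of B2m began at -78 and its Y box at -53. Its window also held an ISRE core at -139 and no match to the kappa B letters searched. In each of these 3 genes the first bases of an X2 core and a Y box lay 25 bases apart. That spacing, picked after the windows had been seen, was found in 30 of 32851 windows (0.091%), belonging to 26 genes, among them the class I gene H2-M3. Tap1 and Psmb9 are read in opposite directions from one shared region, in which the Tap1 window held a Y box at -222 and an X2 core at -86. The Psmb9 window held the same sites seen from the other strand, the X2 core at -144 and the Y box at -8. Psmb8 held a GAS element at -97, Tapbp held Y boxes and Psmb10 held none of the 5. Over all windows, the ISRE core was found in 7.1%, the GAS element in 7.0%, the kappa B site in 0.3%, the X2 core in 17.8% and the Y box in 33.8%. The kappa B letters are those known from class I enhancers, so their presence there is no independent finding, and a match is a run of letters, not a bound site. Each motif was searched in the given letters only, so a window without a match may still hold another form of the site.

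**Figure D1:**
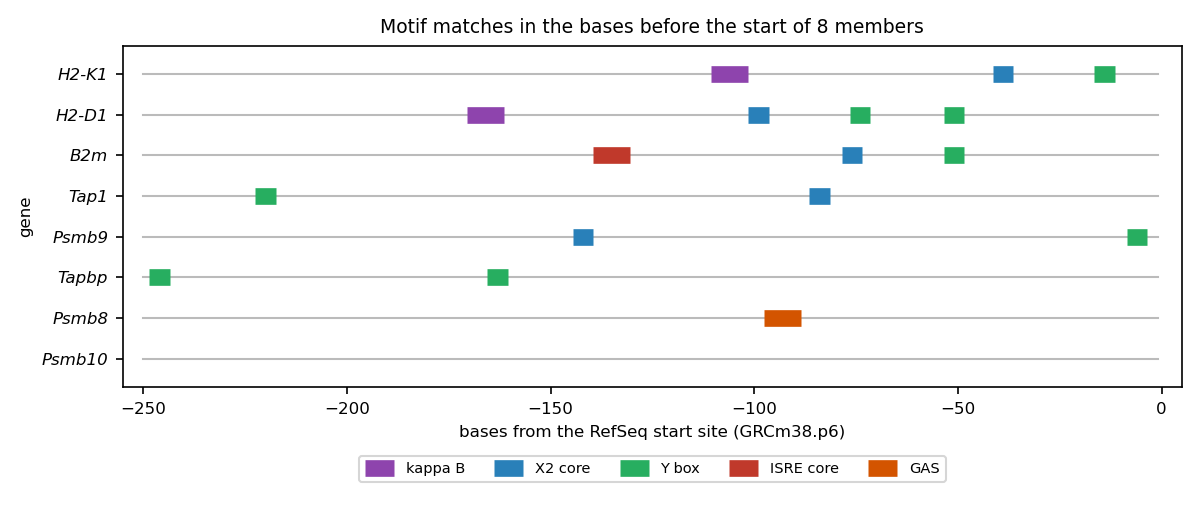
Motif matches in the 250 bases before the RefSeq start of the 8 members in the promoter table, with distance from the start on the horizontal axis and 1 line per gene (the first H2-K1 window). The X2 core and Y box are 25 bases apart in H2-K1, H2-D1 and B2m, and Psmb10 has no match.

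The deposited values were read as log10 intensities, quantile-normalised within each batch, and are given here as log2 levels after each array was shifted to one common median. Groups were compared within a batch only. The Piga signal followed the labels: its log2 level was 1.65 to 1.92 in knock-out GPI-negative against 3.54 to 4.11 in GPI-positive cells, and 0.28 to 0.92 in recipients of knock-out marrow against 4.02 to 4.25 in recipients of wild-type marrow. The 14 neutrophil genes tested were bright in all groups, as in marrow, with summed signals of 16465.2 to 27167.0. In batch 1 the groups also stood apart in technical measures. The control transcripts added at hybridisation had a log2 level of 7.78 ± 0.33 (SD, n = 3) in GPI-negative and 5.70 ± 0.28 (n = 3) in GPI-positive samples, and the Gapdh 3′ minus 5′ log2 difference was -0.16 ± 0.13 and -1.02 ± 0.02. The 3 knock-out GPI-positive arrays lay unusually close together: the median SD over bright genes was 0.064 there and 0.136 to 0.174 in the other groups.

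All 10 members passed the filter on dim signals, by which a probe set had to lie at or above the 40th percentile on 3 or more arrays, and 24 of the 27 probe sets did. The brightest kept probe set stands for a gene, and the test was limma over 14245 genes, with a Benjamini-Hochberg adjusted p under 0.05 needed for a call. In the knock-out, 5 members were called higher in GPI-negative cells (Nlrc5, H2-K1, Tap1, Psmb8 and Psmb10) and 0 lower, where 14.8% of all genes were called higher and 14.8% lower. The groups did not overlap for 7 members, against 43.2% of all genes, and the members' median log2 difference was 0.44 against -0.01 over all genes. Between the recipients 5 members were called higher with knock-out marrow, the same 5, and 0 lower, where 3.95% of genes were called higher and 3.45% lower. There the groups did not overlap for 8 members, against 15.5% of genes, and the median difference was 0.36 against -0.01. Set against wild type, recipients of knock-out marrow had 4 members called higher (Nlrc5, Tap1, Psmb8 and Psmb10), with 6.84% of genes called higher, and 1 called lower (B2m), with 5.55% lower, and 5 members did not overlap, against 16.3% of genes. Set against the same wild-type arrays, recipients of wild-type marrow had 0 members called higher and 1 lower (B2m), where 0.449% and 0.393% of genes were called, and 4 members did not overlap, against 13.9%. At an unadjusted limma p under 0.05 the last comparison had 1 member higher (Tap1) and 6 lower, where 8.15% of all genes were higher and 6% lower. By the same measure 5 members were higher and 0 lower in the knock-out, where 19.4% of genes were higher and 19.4% lower. Between the recipients 9 were higher and 0 lower, where 10.1% of genes were higher and 9.64% lower. The last 3 comparisons share arrays in pairs and do not support one another, whereas the knock-out and the comparison between recipients share none. These do share the limma fit's estimate of the spread, and the members were chosen with earlier results known, so they are not independent support either.

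**Figure D2:**
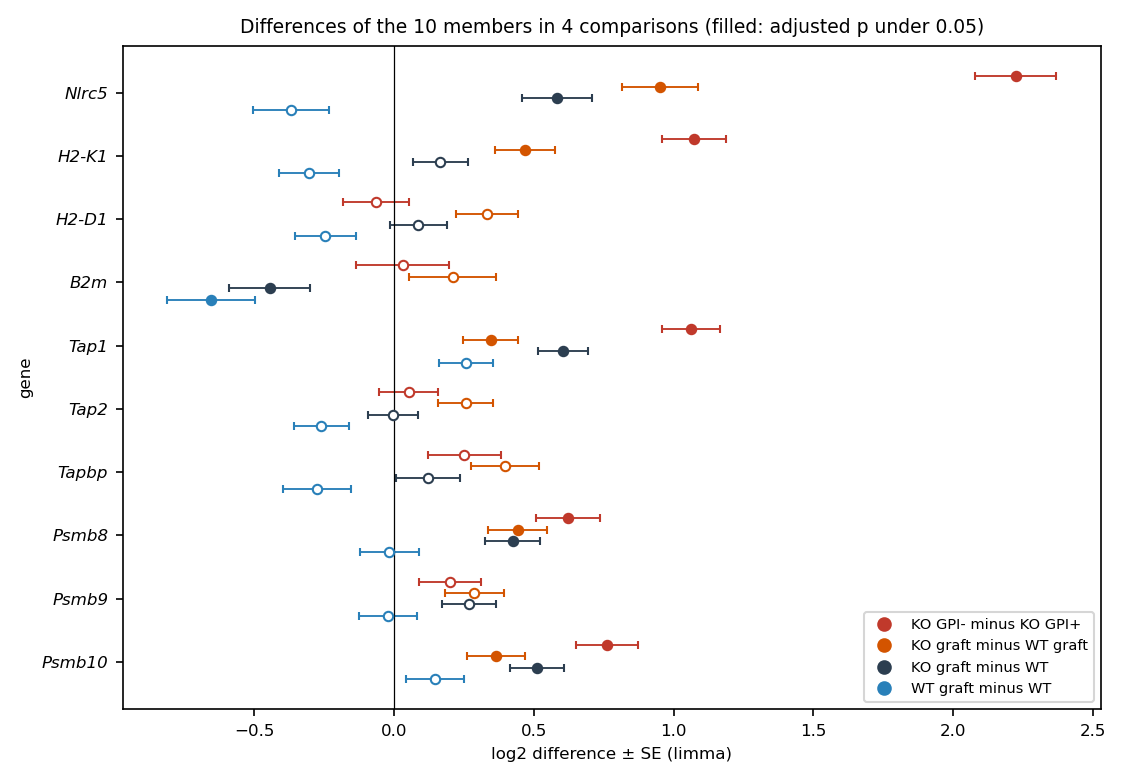
Log2 difference of each member's brightest probe set in 4 comparisons, with the standard error of the limma fit as bars and filled points for an adjusted p under 0.05. The knock-out difference of Nlrc5, 2.22, lies far to the right of the other values, and B2m has the 2 filled points below 0.

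Nlrc5, the class I transactivator, was higher in GPI-negative cells wherever these were compared. Its log2 level was 4.91, 4.80 and 5.26 in knock-out GPI-negative cells and 2.73, 2.87 and 2.69 in knock-out GPI-positive cells. In batch 2 it was 3.99, 4.37, 4.07 and 4.01 in recipients of knock-out marrow, 3.20, 3.27 and 3.0 in recipients of wild-type marrow, and 3.70, 3.56, 3.20 and 3.64 in wild type. The GPI-negative arrays were above every array they were compared with, and only the wild-type and wild-type-graft arrays overlapped. The difference was 2.22 ± 0.14 (SE) in the knock-out, a 4.67-fold rise (limma adjusted p = 5.115e-10). It was 0.95 ± 0.14 between the recipients, 1.93-fold (limma adjusted p = 0.0001109), and 0.58 ± 0.13 against wild type, 1.5-fold (limma adjusted p = 0.003453). Recipients of wild-type marrow were at -0.37 ± 0.14 against wild type (limma adjusted p = 0.2093), so that these neighbours in the order of batch 2 did not differ beyond the threshold. Exact two-sided permutation p-values were 0.1, 0.029 and 0.029 for the first 3 comparisons, each the smallest its design can give. The knock-out difference exceeded that between the recipients by 1.27 ± 0.20 (limma interaction, adjusted p = 0.0001674), where the interaction was called higher for 9.04% of genes and lower for 9.96%. For 3 members it was called higher, Nlrc5, H2-K1 and Tap1, and for 0 lower.

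T and NK cell genes moved in the same groups as Nlrc5. Beside the counts of cell type genes given here and below, 14.8% of all genes were called higher and 14.8% lower in the knock-out. These shares were 3.95% and 3.45% between the recipients, and 6.84% and 5.55% for knock-out marrow against wild type. Of 21 tested T and NK genes, 20 were called higher in knock-out GPI-negative cells, with a median log2 difference of 3.03, and 18 between the recipients, with a median of 1.18. Cd8b1, a chain of the CD8 co-receptor, rose by 4.56 ± 0.30 and 2.28 ± 0.28, the chemokine gene Ccl5 by 4.52 ± 0.30 and 2.91 ± 0.28, and the surface gene Thy1 by 4.31 ± 0.26 and 2.16 ± 0.25. Their summed signal was 917.8 to 1007.3 in knock-out GPI-negative cells and 100.1 to 104.1 in GPI-positive cells. In batch 2 it was 218.6 to 511.0 in recipients of knock-out marrow, 115.1 to 119.8 in recipients of wild-type marrow and 111.4 to 141.6 in wild type. Plasmacytoid dendritic cell genes were also higher, 8 of 8 in the knock-out and 7 of 8 between the recipients, with summed signals of 372.2 to 398.9, 143.3 to 151.8, 334.1 to 426.4, 238.2 to 277.2 and 306.2 to 333.6 in the same order of groups. The receptor gene Ccr9 of this list rose by 2.89 ± 0.23 and 1.95 ± 0.22, and Klk1 by 2.33 ± 0.28 and 2.72 ± 0.26. Of 14 neutrophil genes, 11 were called lower in the knock-out, with a median log2 difference of -1.12. Between the recipients 5 were called lower, but the median was 0, with 7 of the 14 differences positive. None was called higher in either. Among the genes called lower, the granule genes Elane and Mpo were at -1.90 ± 0.15 and -1.48 ± 0.16 in the knock-out and at -1.06 ± 0.14 and -0.70 ± 0.15 between the recipients. The summed neutrophil signal was 16465.2 to 17541.8 in knock-out GPI-negative against 21566.9 to 21894.4 in GPI-positive cells, and 24722.6 to 26533.4 against 23998.7 to 25466.8 between the recipients.

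Other marrow cell types moved as well. In the knock-out 8 of 12 B cell genes were higher and 0 lower, led by the pre-B receptor genes Igll1 (1.85 ± 0.29) and Vpreb1 (1.74 ± 0.31), and the summed B cell signal was 451.1 to 588.2 against 259.8 to 271.5. Between the recipients 2 of the 12 were called higher and 0 lower, but only 3 differences were positive, with a median of -0.14. With knock-out marrow against wild type 2 were higher and 3 lower. All 4 tested eosinophil genes were lower in the knock-out, led by the granule gene Prg2 (-3.04 ± 0.46), with a summed signal of 17.2 to 32.5 against 131.7 to 133.6. Of 6 plasma cell genes 1 was higher and 3 lower, with Jchain at -3.04 ± 0.36 and Igha at -2.74 ± 0.31, and the summed signal was 201.1 to 327.2 against 780.8 to 966.5. Of 12 monocyte and macrophage genes 1 was higher and 7 lower in the knock-out, with Vcam1 at -1.81 ± 0.11 and the complement gene C1qa at -1.76 ± 0.17. Between the recipients 6 of these 12 were higher and 5 lower. Vcam1 and C1qa were again lower there, at -1.94 ± 0.11 and -1.22 ± 0.16, and Ccr2, Cd68 and Cd14 were higher, by 1.03 ± 0.20, 0.96 ± 0.12 and 0.95 ± 0.16. Their summed signal was 480.4 to 673.6 with knock-out marrow and 322.6 to 387.4 with wild-type marrow. Of 11 erythroid genes 5 were lower and 0 higher between the recipients, led by Ermap (-1.52 ± 0.30) and the erythroid factor Klf1 (-1.35 ± 0.30), with summed signals of 189.0 to 644.3 against 501.5 to 728.1. Against wild type 10 of the 11 were lower with knock-out marrow. In sorted cell mixtures, fewer cells of a type and less RNA per cell cannot be told apart. The part of these cell types, and of the technical measures of batch 1, in the differences of the members was not tested.

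**Figure D3:**
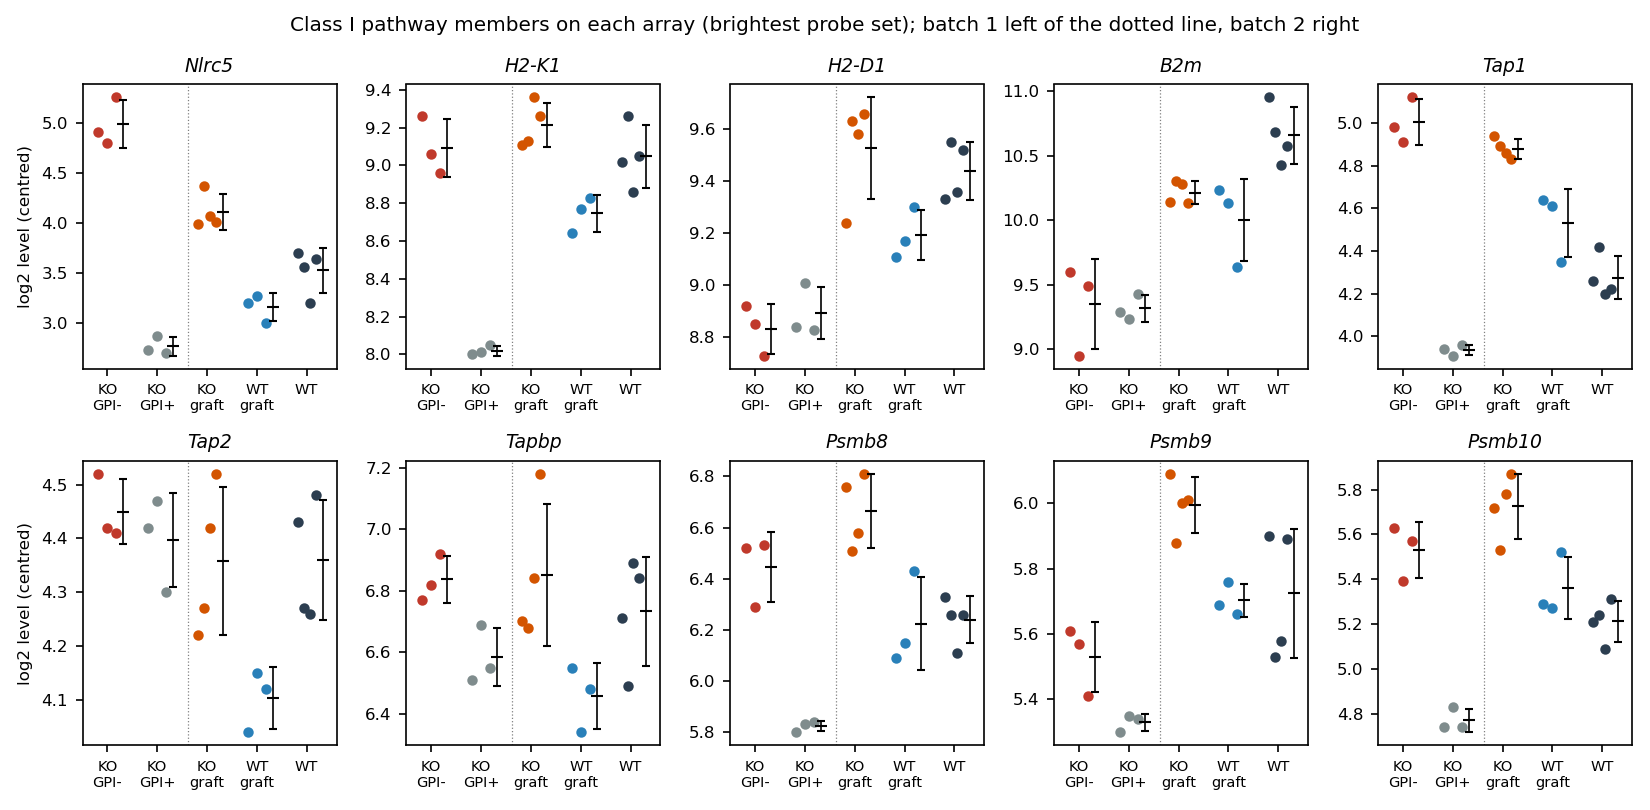
Log2 level of the 10 members on each of 17 arrays, 1 point per array, with the mean and SD of each group beside the points and a dotted line between the batches. The knock-out fractions do not overlap for 7 members and do for H2-D1, B2m and Tap2.

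Among the class I chains, by their brightest probe sets, H2-K1 was called higher and H2-D1 and B2m were not. H2-K1, a classical heavy chain, had log2 levels of 9.26, 9.06 and 8.96 in knock-out GPI-negative against 8.0, 8.01 and 8.05 in GPI-positive cells. Its levels were 9.11, 9.13, 9.36 and 9.26 with knock-out marrow, 8.64, 8.77 and 8.83 with wild-type marrow, and 9.02, 9.26, 8.86 and 9.05 in wild type. The knock-out fractions and the recipients were apart, while recipients of knock-out marrow overlapped wild type. The rise was 1.07 ± 0.11 in the knock-out, 2.10-fold (limma adjusted p = 4.004e-07), and 0.47 ± 0.11 between the recipients, 1.38-fold (limma adjusted p = 0.00802). Against wild type the difference was 0.16 ± 0.10 (limma adjusted p = 0.3357). With the mean of its probe sets, H2-K1 was also lower in recipients of wild-type marrow than in wild type, at -0.44 (adjusted p = 0.0273), where the brightest probe set gave -0.30 ± 0.11 (limma adjusted p = 0.1884). The interaction was 0.60 ± 0.16 (limma adjusted p = 0.009319), and it no longer passed when the close-lying GPI-positive arrays were averaged into 1 sample (adjusted p = 0.1).

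The brightest H2-D1 probe set, for the other classical heavy chain of these mice, gave 8.92, 8.85 and 8.73 in knock-out GPI-negative and 8.84, 9.01 and 8.83 in GPI-positive cells. In batch 2 it gave 9.24, 9.63, 9.58 and 9.66 with knock-out marrow, 9.11, 9.17 and 9.30 with wild-type marrow and 9.33, 9.55, 9.36 and 9.52 in wild type. The knock-out fractions overlapped, as did the 2 recipient groups, while recipients of wild-type marrow lay just below wild type. The limma difference was -0.07 ± 0.12 in the knock-out (adjusted p = 0.7298) and 0.33 ± 0.11 between the recipients (adjusted p = 0.07493). The mean of its 8 kept probe sets gave another direction in the knock-out, 0.33 (adjusted p = 0.0178), and a call between the recipients, 0.43 (adjusted p = 0.00737).

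The probe sets of the heavy chains disagreed with one another. Among all 24 kept probe sets of the members, 10 were called higher and 0 lower in the knock-out in a limma fit over 32426 probe sets, in which 12% were called higher. Between the recipients 8 were called higher, against 2.33% of all, and 4 in recipients of knock-out marrow against wild type, where 4.2% were. In the knock-out, and likewise between the recipients, 3 of 4 H2-K1 probe sets and 3 of 8 of H2-D1 were called higher, and 0 of either with knock-out marrow against wild type. The H2-K1 probe set 1427746_x_at differed most, with 7.21, 7.03 and 7.06 against 5.21, 5.14 and 4.95 in the knock-out fractions. Between the recipients it stood at 7.5, 7.34, 7.77 and 7.5 against 6.16, 6.15 and 6.52, and wild type had 7.47, 7.15, 7.05 and 7.25. The rise was 2.0 ± 0.14 (adjusted p = 6.341e-10) and 1.26 ± 0.13 (adjusted p = 2.709e-06), and this was the 1 member probe set lower in recipients of wild-type marrow than in wild type, at -0.96 ± 0.13 (adjusted p = 0.001228), where 0.318% of probe sets were lower. H2-D1 probe set 1426324_at, whose probes are not marked as shared with other genes, read 6.27, 6.32 and 6.15 against 5.28, 5.52 and 5.36 in the knock-out, a difference of 0.86 ± 0.13 (adjusted p = 3.497e-05). It differed by 0.58 ± 0.12 between the recipients (adjusted p = 0.005538). H2-D1 probe set 1450170_x_at rose by 1.60 ± 0.22 in the knock-out (adjusted p = 1.223e-05), and 1427651_x_at gave -0.63 ± 0.24 (adjusted p = 0.0545). Of the 27 member probe sets, 13 have names ending in _x_at, which marks probes shared with other transcripts, among them all 4 of H2-K1. Class I genes are near copies, so signal of H2-K1, H2-D1 and other class I genes may be mixed on these probe sets.

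**Figure D4:**
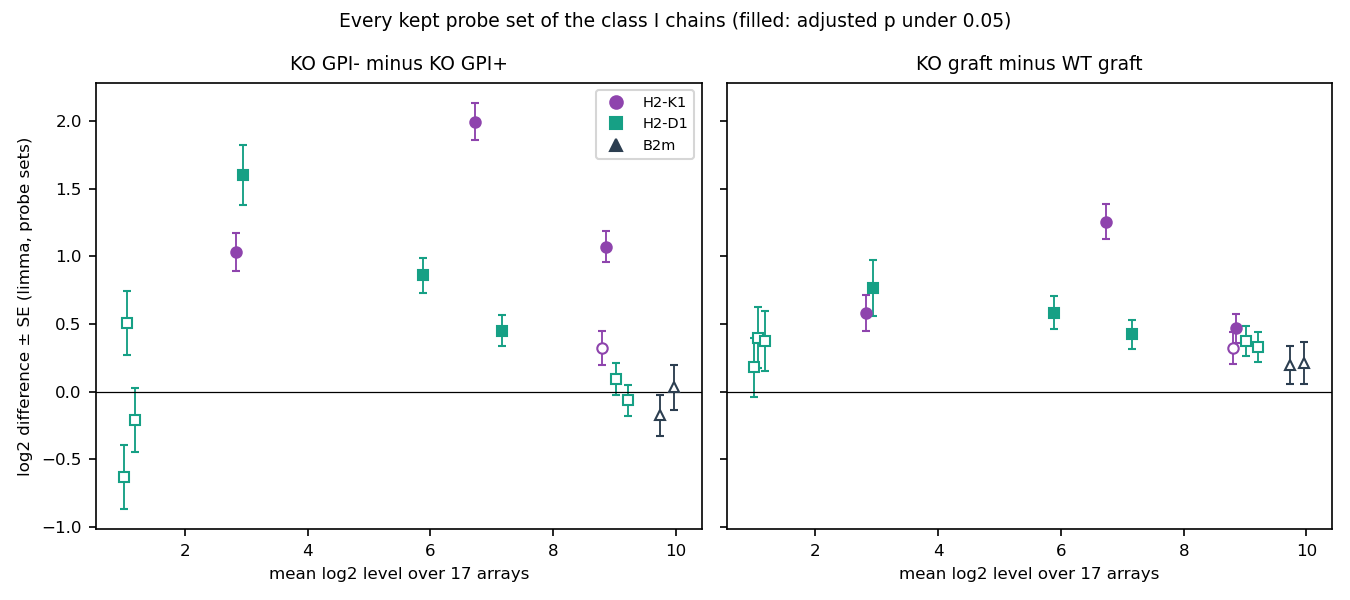
Log2 difference with its standard error for each kept probe set of H2-K1, H2-D1 and B2m against its mean log2 level over 17 arrays, in the knock-out (left) and between the recipients (right), with filled points for an adjusted p under 0.05 over probe sets. The H2-D1 values run from -0.63, on a dim probe set, to 1.60 in the knock-out.

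B2m, the light chain that every class I molecule needs, was called neither in the knock-out nor between the recipients, and was lower in both recipient groups than in wild type. Its levels were 9.60, 8.95 and 9.49 in knock-out GPI-negative and 9.29, 9.23 and 9.43 in GPI-positive cells, a difference of 0.03 ± 0.17 (limma adjusted p = 0.9156), and between the recipients the difference was 0.21 ± 0.16 (limma adjusted p = 0.522). In batch 2 it read 10.14, 10.30, 10.28 and 10.13 with knock-out marrow, 10.23, 10.13 and 9.64 with wild-type marrow, and 10.95, 10.68, 10.43 and 10.57 in wild type. Both recipient groups lay wholly below wild type. The difference from wild type was -0.45 ± 0.14 with knock-out marrow (limma adjusted p = 0.04705) and -0.66 ± 0.16 with wild-type marrow (limma adjusted p = 0.04918), with an exact permutation p of 0.029 in each. Both calls are close to the threshold: leaving out any 1 array of the groups compared, other than wild-type replicate 3, ended them, with adjusted p from 0.0637 to 0.156 and from 0.0785 to 0.193. The other B2m probe set gave -0.05 ± 0.13 and -0.24 ± 0.14. In the knock-out, GPI-negative replicate 2 lay well below the other replicates of its group.

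Of the transport and loading genes, Tap1 was called and Tap2 and Tapbp were not. Tap1, one subunit of the peptide transporter, read 4.98, 4.91 and 5.12 in knock-out GPI-negative and 3.94, 3.91 and 3.96 in GPI-positive cells. It read 4.94, 4.89, 4.86 and 4.83 with knock-out marrow, 4.64, 4.61 and 4.35 with wild-type marrow, and 4.26, 4.42, 4.20 and 4.22 in wild type. Recipients of knock-out marrow lay above both other groups of batch 2, which overlapped. The rise was 1.06 ± 0.10 in the knock-out, 2.09-fold (limma adjusted p = 1.178e-07), 0.60 ± 0.09 against wild type, 1.52-fold (limma adjusted p = 0.0001126), and 0.34 ± 0.10 between the recipients (limma adjusted p = 0.03118). The call between the recipients was lost when replicate 1, 2 or 3 with knock-out marrow, or replicate 2 or 3 with wild-type marrow, was left out, with adjusted p from 0.0513 to 0.191. The knock-out rise exceeded that between the recipients by 0.72 ± 0.14 (limma interaction, adjusted p = 0.001249). That value rests on the brightest of 2 kept Tap1 probe sets. The mean of both gave an interaction of 0.04 (adjusted p = 0.892) and a difference from wild type of 0.29 (adjusted p = 0.0816). The other probe set was dim, with group means of 0.83 to 1.27, against 3.94 to 5.0 for the brightest. Its mean percentile among probe sets was 21.4 to 43.7 by group, so the mean of both is a weak check of the brightest.

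Tap2, the other transporter subunit, read 4.52, 4.42 and 4.41 against 4.42, 4.47 and 4.30 in the knock-out, a difference of 0.05 ± 0.11 (limma adjusted p = 0.7585). Between the recipients it read 4.22, 4.27, 4.42 and 4.52 against 4.04, 4.15 and 4.12, and the difference was 0.26 ± 0.10 (limma adjusted p = 0.1329). The recipients did not overlap for Tap2, yet the difference did not pass. In wild type Tap2 read 4.43, 4.27, 4.26 and 4.48, and recipients of wild-type marrow lay wholly below these. The difference from wild type was -0.004 ± 0.09 with knock-out marrow (limma adjusted p = 0.9858). With wild-type marrow it was -0.26 ± 0.10 (limma adjusted p = 0.2217). Tapbp, the tapasin gene, read 6.77, 6.82 and 6.92 against 6.51, 6.69 and 6.55 in the knock-out, 0.25 ± 0.13 (limma adjusted p = 0.1627). It read 6.70, 6.68, 6.84 and 7.18 with knock-out marrow against 6.55, 6.34 and 6.48 with wild-type marrow, 0.40 ± 0.12 (limma adjusted p = 0.05058), which lies at the edge of the threshold. Against wild type Tapbp was at 0.12 ± 0.11 with knock-out marrow (limma adjusted p = 0.5772) and at -0.28 ± 0.12 with wild-type marrow (limma adjusted p = 0.2985). The other Tapbp probe set gave -0.15 ± 0.19 in the knock-out, where the GPI-negative arrays lay wholly below the GPI-positive ones. Between the recipients it gave 0.48 ± 0.18, and neither value was called in the fit over probe sets.

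Of the immunoproteasome subunits, Psmb8 and Psmb10 were called higher in GPI-negative cells and Psmb9 was not. Psmb8, which takes the place of Psmb5, read 6.52, 6.29 and 6.53 against 5.80, 5.83 and 5.84 in the knock-out. It read 6.76, 6.51, 6.58 and 6.81 with knock-out marrow, 6.09, 6.15 and 6.43 with wild-type marrow, and 6.33, 6.26, 6.11 and 6.26 in wild type. The GPI-negative arrays lay above all others of their batch. The rise was 0.62 ± 0.11 in the knock-out, 1.54-fold (limma adjusted p = 0.0002472), 0.44 ± 0.11 between the recipients (limma adjusted p = 0.01173) and 0.42 ± 0.10 against wild type (limma adjusted p = 0.005939). The call between the recipients was lost when replicate 1 or 2 with wild-type marrow was left out (adjusted p = 0.0655 each), and with the mean of its probe sets (adjusted p = 0.275).

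Psmb10, which takes the place of Psmb7, read 5.63, 5.39 and 5.57 against 4.74, 4.83 and 4.74 in the knock-out. In batch 2 it read 5.72, 5.53, 5.78 and 5.87 with knock-out marrow, 5.29, 5.27 and 5.52 with wild-type marrow, and 5.21, 5.24, 5.09 and 5.31 in wild type. Here too the GPI-negative arrays were the highest of their batch. The rise was 0.76 ± 0.11 in the knock-out, 1.69-fold (limma adjusted p = 2.055e-05), 0.37 ± 0.10 between the recipients (limma adjusted p = 0.03276) and 0.51 ± 0.10 against wild type (limma adjusted p = 0.001058). Between the recipients the call was lost when replicate 3 (adjusted p = 0.0752) or 4 (0.105) with knock-out marrow was left out, or replicate 1 (0.11) or 2 (0.155) with wild-type marrow.

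Psmb9, which takes the place of Psmb6, read 5.61, 5.57 and 5.41 against 5.30, 5.35 and 5.34 in the knock-out. It read 6.09, 5.88, 6.00 and 6.01 with knock-out marrow, 5.69, 5.76 and 5.66 with wild-type marrow, and 5.90, 5.53, 5.58 and 5.89 in wild type. The fractions and the recipients did not overlap, but the differences of 0.20 ± 0.11 (limma adjusted p = 0.1902) and 0.29 ± 0.10 (limma adjusted p = 0.1075) did not pass. Psmb9 and Tap1 start from the shared region shown above, and Tap1 had the larger knock-out difference, 1.06 against 0.20; the difference between these genes was not tested. None of the constitutive subunits was called in the knock-out: Psmb5 was at -0.25 ± 0.11, Psmb6 at 0.01 ± 0.14 and Psmb7 at -0.43 ± 0.17, and an unadjusted limma p under 0.05 for 2 of the 3, both lower. Psmb6 was higher in recipients of wild-type marrow than in wild type, by 0.58 ± 0.13 (limma adjusted p = 0.04046), and in recipients of knock-out marrow, by 0.41 ± 0.12 (limma adjusted p = 0.03181).

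The knock-out calls did not hang on the closeness of the GPI-positive arrays. With those averaged into 1 sample all 5 members still passed, with limma adjusted p from 1.836e-06 for Nlrc5 to 0.026 for Psmb8. They also passed without any single knock-out array. All genes called fell from 4206 to 1652 under that averaging.

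Other genes of the pathway, from lists written with earlier results of these data known, are given by their counts. Beside these counts, 14.8% of all genes were called higher and 14.8% lower in the knock-out, and 3.95% and 3.45% between the recipients. The shares were 6.84% and 5.55% for knock-out marrow against wild type, and 0.449% and 0.393% for wild-type marrow against wild type. Of 19 further class I chains, 9 were tested, and in the knock-out 2 were higher and 3 lower, with a median difference of 0.31. H2-Ke6, an enzyme gene of the MHC region that the list also held, was left out of these counts after the data had been seen; it was not called. The higher ones were H2-M3, which presents formylated peptides, by 1.28 ± 0.12 (limma adjusted p = 9.858e-08), and Cd1d1, which presents lipids, by 1.13 ± 0.18. H2-Q10, H2-T24 and the iron regulator Hfe were lower, by values of -0.98 ± 0.24, -0.91 ± 0.18 and -0.58 ± 0.15. Between the recipients H2-M3 (0.84 ± 0.11) and Fcgrt (0.77 ± 0.12), the neonatal Fc receptor chain, were higher and 0 were lower. Of 14 other peptide loading genes tested, 2 were higher in the knock-out, near the share over all genes. These were the tapasin relative Tapbpl (0.75 ± 0.13) and the hydrolase Blmh (0.39 ± 0.10). Between the recipients 0 were higher, with 2 at an unadjusted limma p under 0.05, and the peptidase Thop1 was lower (-0.55 ± 0.15). Against wild type 5 were higher and 1 lower in recipients of knock-out marrow, the glycoprotein checkpoint gene Uggt1 by 0.63 ± 0.10 and calreticulin (Calr) by 0.36 ± 0.09. Calr was also higher in recipients of wild-type marrow, by 0.44 ± 0.10. Of 4 tested proteasome activator genes, Psme1, a subunit of the interferon-inducible PA28 cap, was higher in the knock-out by 0.53 ± 0.10, and 0 were called between the recipients (1 higher and 1 lower at an unadjusted limma p under 0.05).

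Of 17 tested regulators of class I genes, 4 were higher and 2 lower in the knock-out, and 5 higher and 0 lower between the recipients. Irf1, an interferon-induced activator of class I promoters, rose by 0.57 ± 0.12 and 0.43 ± 0.11, and by 0.54 ± 0.10 against wild type. Irf8, which is also a gene of the plasmacytoid dendritic cell list, rose by 1.31 ± 0.13 and 0.84 ± 0.12. Irf3, a sensor-activated interferon factor, rose by 0.65 ± 0.10 in the knock-out and was at 0.14 ± 0.09 between the recipients. Irf7 and Irf9, which carry the type I interferon response, rose between the recipients by 0.59 ± 0.18 and 0.57 ± 0.11 and were lower in recipients of wild-type marrow than in wild type, at -0.80 ± 0.18 and -0.67 ± 0.11. With knock-out marrow both stayed short of a call against wild type, at -0.21 ± 0.17 and -0.10 ± 0.10. Subunits of NF-Y, the Y box factor, went both ways in the knock-out, with Nfyc at 0.49 ± 0.12 and Nfyb at -0.48 ± 0.14. Rfx5, of the X box complex, was at 0.27 ± 0.11 and 0.00 ± 0.10, and Ciita, the class II counterpart of Nlrc5, at -0.02 ± 0.14 and 0.10 ± 0.13, none of which passed.

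Among 12 interferon signalling genes 5 were higher and 1 lower in the knock-out, with Ifng, the gene of interferon gamma, at 0.98 ± 0.19, Jak1 at 0.83 ± 0.11 and the receptor chain Ifngr2 at -1.09 ± 0.17. Between the recipients 5 were higher and 0 lower, where Ifngr2 was at 0.53 ± 0.16 and Usp18, a brake on type I interferon signals, at 0.76 ± 0.18. Of 30 interferon-stimulated genes 10 were higher and 5 lower in the knock-out, and 11 higher and 0 lower between the recipients. The GTPase genes Igtp (1.09 ± 0.12 and 0.52 ± 0.12) and Gbp2 (0.99 ± 0.12 and 0.56 ± 0.11) rose in both. Bst2 (tetherin), which also belongs to the plasmacytoid dendritic cell list, rose by 2.02 ± 0.16 and 1.60 ± 0.15. The antiviral gene Oasl2 was lower in the knock-out (-0.65 ± 0.20) and higher between the recipients (0.75 ± 0.19), with an interaction of -1.40 ± 0.28 (limma adjusted p = 0.0012). In recipients of wild-type marrow 4 interferon-stimulated genes were lower than in wild type, Oasl2 by a difference of -1.07 ± 0.19, and 0 were higher (17 lower and 0 higher at an unadjusted limma p under 0.05). Recipients of knock-out marrow had 4 higher and 3 lower against wild type, with Isg20 at -1.31 ± 0.33 and Rsad2 at -1.12 ± 0.34. MHC class II genes were higher too, 5 of 8 in the knock-out and 8 of 8 between the recipients, with medians of 0.69 and 1.01. Against wild type 7 of 8 were higher in recipients of knock-out marrow, H2-Ab1 by 1.36 ± 0.18, H2-Eb1 by 1.30 ± 0.19, H2-Aa by 1.17 ± 0.16 and H2-DMa by 1.14 ± 0.15. Over all these pathway lists without H2-Ke6, 29 of 97 genes were higher and 11 lower in the knock-out, and 31 higher and 1 lower between the recipients. Of all genes, 14.8% were higher and 14.8% lower in the knock-out, and 3.95% and 3.45% between the recipients.

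The genes whose pattern was most like that of Nlrc5 over the 17 arrays, after each batch was centred, were Mndal (Pearson r = 0.979), Gbp8 (0.975), Epsti1 (0.974), Gbp2 (0.972) and Ikzf2 (0.97), out of 14235 genes that are not members. Among the members, H2-K1 (0.926), Tap1 (0.902), Psmb10 (0.846) and Psmb8 (0.845) followed Nlrc5 most closely. They ranked 119, 185, 388 and 389 of 14244 genes, so many genes that are not members lay nearer. Psmb9 (0.607), Tapbp (0.544) and Tap2 (0.361) followed Nlrc5 less, and H2-D1 (0.162) and B2m (0.14) hardly. For the mean of the other 9 members the nearest genes were Shisa5 (0.949), Slfn8 (0.944), Ly6e (0.94), H2-M3 (0.931) and Mndal (0.929). Arrays of a group share their cell mixture, so these values describe the same differences between groups as above. Gbp8 rose by 2.95 ± 0.20 in the knock-out and 1.23 ± 0.19 between the recipients, and Shisa5 by 1.18 ± 0.10 and 1.09 ± 0.10.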

How the data were processed

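Total RNA from sorted marrow cells was labelled from 500 ng (batch 1) or 1000 ng (batch 2, taken from the order of the protocols) and hybridised to arrays of 45101 probe sets. The authors' deposited values lie on a log10 scale, judged from the values because the sources used here do not state the base. Sorted values are identical between arrays of a batch, so they were quantile-normalised per batch. The sources used here do not say how background was corrected or probes summarised. The submitters' processing notes name GCOS 12. A scale that saturates or flattens would shrink differences of bright and dim probe sets.

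Values were converted to log2 and arrays shifted to a common median. Of 34945 probe sets with 1 symbol, 34741 matched RefSeq (GRCm38.p6), 932 had several symbols and 9160 none. Filter and gene rule are as described above, leaving 14245 genes. One limma 3.58.1 fit (lmFit, eBayes with trend, R 4.3.3) had 5 group means and 12 residual degrees of freedom, and p-values were adjusted over all genes. Medians of all genes' differences moved by less than 0.1 under other scalings. Single values were compared by exact permutation of group means. The scripts were tested on simulated data. Of each pathway list the 4 called genes of largest change were named. Up to 3 leading genes of a cell type list were named where it is described. Ccr2, Cd68, Cd14, Hfe, Fcgrt, Blmh, Irf1, the NF-Y subunits, Rfx5, Ciita, Oasl2, Psmb5 and Psmb7 were picked after their values were seen. The members and lists were chosen with earlier results of these data known. The number of arrays limits the precision: the median SE of a log2 difference was 0.154 in the knock-out and 0.144 between the recipients. Same-numbered arrays did not deviate together (correlations from -0.332 to 0.188).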

Additional observations from a re-analysis of the deposited data

Results flagged for a closer look

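On one dim H2-D1 probe set (1425614_x_at), replicate 4 of the recipients of knock-out marrow had a log2 level of 0.41, where the other arrays of the group had 1.30 to 1.44. This was 1 of 48 groups of 4 arrays examined, and chance alone sets apart about 1 in 20 groups. Differences between the knock-out and recipient comparisons, tested by the limma interaction, passed for Nlrc5 (1.27), Tap1 (0.72) and H2-K1 (0.60), each larger in the knock-out, and for the H2-K1 probe set 1427746_x_at (0.74). The comparisons lie in different batches, and T and NK cell genes also differed more in the knock-out, with 19 of 21 called in the interaction and a median of 1.70. B cell genes (7 of 12 higher, 2 lower), neutrophil genes (11 of 14 lower) and monocyte and macrophage genes (7 of 12 lower) differed as well. So did some erythroid (4 of 11 higher), plasmacytoid dendritic cell (3 of 8 higher), megakaryocyte (2 of 5 higher), plasma cell (2 of 6 higher, 3 lower) and eosinophil genes (1 of 4 lower). Beside these counts, the interaction was called higher for 9.04% of all genes and lower for 9.96%. The part of these cell types in the differences of the members was not tested.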

How the results depend on the processing

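Of 1020 values of single members under alternative settings, 935 kept their direction and side of the threshold, 46 lost a call, 16 gained one and 23 turned sign. In the knock-out no call was lost under these settings, which do not include testing every probe set. When every kept probe set of a gene had to pass, members called numbered 2 in the knock-out, 1 between the recipients, 2 for knock-out marrow against wild type, 0 for wild-type marrow against wild type and 1 in the interaction, and all genes called 2448, 483, 853, 58 and 1415. Between the recipients members called fell from 5 to 3 when only the arrays of batch 2 were fitted, to 2 with a replicate block and to 2 at a threshold of 0.01, and ranged from 2 to 6 without single replicates. All genes called there numbered 1053 in the main fit, 996 with only the arrays of batch 2 and 807 with the block. Averaging a gene's probe sets left 3 members for knock-out marrow against wild type, where all genes called went from 1765 to 1616. For wild-type marrow against wild type the 1 call became 0 with no filter, without a trend, with the replicate block, at 0.01 and without most single replicates (0 to 1). Averaging the knock-out GPI-positive arrays gave 1652 genes in the knock-out and 978 in the interaction. At 0.01 the counts of genes were 2696, 517, 930, 22 and 1433. Between the recipients 677 to 1309 genes were called without single replicates, lowest when replicate 2 (677) or 3 (684) with wild-type marrow was left out. For wild-type marrow against wild type, 120 genes were called in the main fit and 108 with no filter. The count there was 59 without a trend, 353 with array weights, 45 with the replicate block and 21 to 89 without single replicates. The cause of these changes was not tested.

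Signs turned only where the difference was not called in the first place. With the mean of probe sets the knock-out value was 0.325 for H2-D1 and -0.072 for B2m, that of Tapbp for knock-out marrow against wild type was -0.041, and those of Tap1 and Psmb8 for wild-type marrow against wild type were -0.091 and 0.102. With array weights Tap2 was at 0.020 for knock-out marrow against wild type. With the replicate block Psmb8 and Psmb9 were at 0.010 and 0.009 for wild-type marrow against wild type. Without single replicates, B2m ran from -0.097 to 0.23 in the knock-out and from -0.307 to 0.020 in the interaction. Tap2 ran from -0.056 to 0.041 for knock-out marrow against wild type, and Psmb8 from -0.12 to 0.051 and Psmb9 from -0.084 to 0.037 for wild-type marrow against wild type. The block rests on numbers that did not pair the arrays. With it the limma adjusted p between the recipients was 0.0504 for Tap1, 0.0567 for Psmb8 and 0.12 for Psmb10.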
